A study of Mus musculus with 8 samples.

Results

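The genes examined are 38 genes of cholesterol and fatty acid synthesis, taken by symbol from the 54532 gene identifiers counted in each library. They comprise 18 enzymes of the sterol arm, 10 enzymes of the fatty acid arm, 7 regulators and 3 genes of sterol efflux and transport. All 38 passed the filter on low counts, as did 22544 genes in all. RNA came from primary cultures of brain pericytes from wild-type (WT) mice, 4 given vehicle (replicates 1 to 4) and 4 given TGF-β1 (5 μg/mL, replicates 5 to 8), all sampled after 48 h. The labels name no other genotype, allele or agent in either group. According to the study's methods, the cells were dissociated from brain, passaged and kept in medium with serum and growth factors, so they are a culture model without the other cells of the vessel wall. Those methods describe 4 isolates treated with both agents, whereas the sample labels pair no culture with another, and the p-values below measure only the spread between these cultures.

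Pericytes are mural cells that wrap brain capillaries. TGF-β1, a secreted cytokine, signals to them through receptor kinases and SMAD proteins. Cells build cholesterol from acetyl-CoA through mevalonate, squalene and lanosterol, and build fatty acids from the same precursor through malonyl-CoA. The membrane-bound transcription factors SREBP-1 and SREBP-2, encoded by *Srebf1* and *Srebf2*, switch on the genes of both arms when sterols are scarce. SCAP carries them to the Golgi for cleavage, INSIG proteins hold that complex back in the endoplasmic reticulum, and the oxysterol-sensing liver X receptors, encoded by *Nr1h2* and *Nr1h3*, drive sterol export.

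With TGF-β1, 12 of the 38 genes were higher and 11 were lower (edgeR quasi-likelihood test, adjusted p under 0.05), and 15 did not pass the test. That is 60.5% of the set, where 41.3% of all genes tested passed (20.9% higher and 20.3% lower). The share over all genes depends on the filter on counts, and was 45% among genes with at least 10 counts in every culture. The part of expression level in the difference between these shares was not tested. The changes were small: the median absolute log2 fold change was 0.13 in the set and 0.1848 over all genes tested, and the signed median was 0.01 in the set and -0.0112 over all genes. Only 2 of the 38, *Abcg1* and *Nr1h3*, changed by more than 0.5 on the log2 scale. The values of the TGF-β1 and vehicle cultures did not overlap for 21 of the 38 genes, against 37.9% of all genes tested. Along the sterol arm, genes that rose and genes that fell were interspersed (5 higher, 6 lower), and in the fatty acid arm 5 genes were higher and 1 lower.

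**Figure D1:**
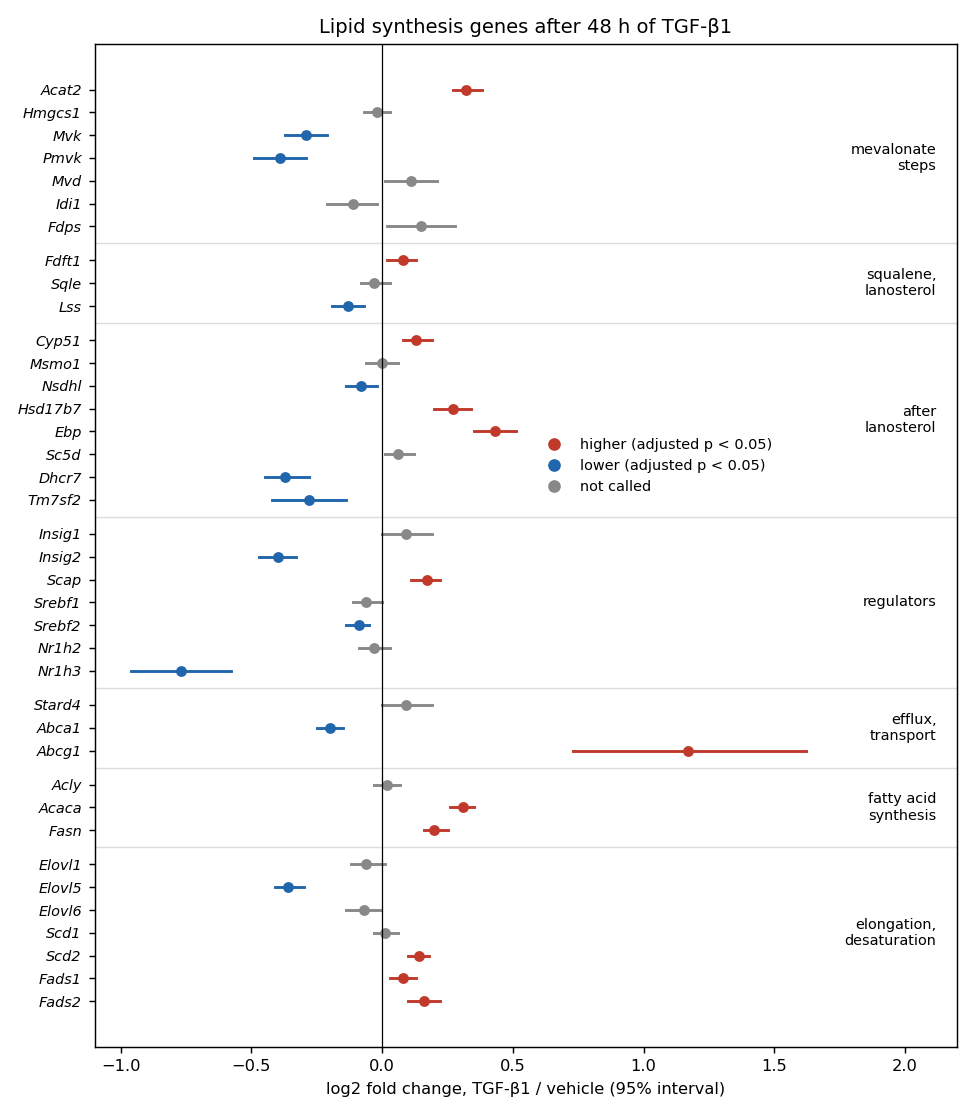
Log2 fold change of each of the 38 genes (points; positive values are higher with TGF-β1) with its 95% interval (bars), in pathway order, in red or blue where the adjusted p was under 0.05. Red and blue points are interspersed along the sterol steps, with *Ebp* at 0.43 and *Pmvk* at -0.39, and *Abcg1* at 1.17 and *Nr1h3* at -0.77 lie farthest from 0.

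Depth was even, at 45255235 to 47651397 counts per culture, so that 3 counts equal 0.0631 to 0.0658 CPM (counts scaled to each culture's TMM-adjusted library total). The pericyte markers *Pdgfrb*, *Cspg4*, *Notch3*, *Anpep* and *Rgs5* were detected, but 6 of 11 pericyte markers (*Des*, *Kcnj8*, *Abcc9*, *Vtn*, *Atp13a5* and *Higd1b*) were below 1 CPM in every culture. Summed pericyte markers were 414.6 to 434.7 CPM with vehicle and 568.8 to 591.4 CPM with TGF-β1. Of 8 tested genes 2 were higher (*Pdgfrb* and *Cspg4*) and 3 lower (*Anpep*, *Atp13a5* and *Rgs5*, the last from 8.621 to 2.131 CPM). Fibroblast markers, led by *Col1a1*, summed to 2421 to 2545 CPM and 3799 to 3961 CPM (2 of 4 tested genes higher, 1 lower; *Lum* was below 1 CPM). Endothelial markers summed to 472.5 to 485.6 CPM and 475.4 to 500.8 CPM (2 of 6 higher, 1 lower), with *Cdh5* at 374.9 CPM in vehicle cultures while *Cldn5* and *Emcn* were below 1 CPM. Astrocyte markers summed to 54.87 to 61.86 CPM and 40.73 to 45.67 CPM (2 of 5 higher, 2 lower; *Aqp4* below 1 CPM), and oligodendrocyte markers to 25.39 to 26.97 CPM and 20.14 to 23.61 CPM (1 of 5 higher, 1 lower; *Mag*, *Mobp*, *Ugt8a* and *Opalin* below 1 CPM). Microglia markers summed to 102.8 to 107.8 CPM and 101.3 to 103.9 CPM, nearly all from *Tmem119* (1 of 5 higher, 0 lower, and 1 lower at an unadjusted p under 0.05; *Aif1*, *P2ry12*, *C1qa* and *C1qb* below 1 CPM; edgeR). Of 8 TGF-β response genes 7 were higher and 1 lower, with a median log2 fold change of 1.02. The part of these markers in the lipid genes' values was not tested, and in bulk RNA fewer cells of a type and less RNA per cell cannot be told apart.

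The sterol genes are known for promoters that bind SREBP together with the factors NF-Y and Sp1, so promoter sequence was examined for 30 of the 38 genes, those found in the RefSeq promoter table (GRCm38.p6). The others were *Fdps*, *Fdft1*, *Sqle*, *Stard4*, *Abcg1*, *Scd1*, *Scd2* and *Fads1*. RefSeq gives 7 of the 30 genes more than 1 start site, and a gene was counted when the window of any of its start sites held the motif, in the 38 genes and in all others alike. In the 250 bases before a start site, the NF-Y box CCAAT, on either strand, was found in 14 of 15 sterol arm genes (93.3%) and in 39.3% of the 12971 genes with a promoter that passed the filter on counts. The box was in every window of 12 of the 15, in 1 of 2 windows of *Pmvk* and in 1 of 3 of *Dhcr7*, while *Acat2* had none. In the fatty acid arm 3 of 7 genes held it, *Fasn*, *Elovl1* and *Elovl5*, and among the regulators 4 of 7 did. The Sp1 box GGGCGG, on either strand, was in 14 of 15 sterol arm genes and in 57.5% of the genes that passed the filter. It was in 3 of 7 fatty acid arm genes (42.9%) and 5 of 7 regulators. A sterol response element spelled TCACNCCAC was found only in *Hmgcs1*, where it began 137 bases before the start site, and in 1.32% of the 12971 genes that passed the filter. In the sterol arm, CCAAT was in 3 of 4 genes that were higher (all but *Acat2*), 6 of 6 that were lower and 5 of 5 that did not pass the test, so genes of each direction carried it.

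The following stretches end at the base before a start site (for *Insig2*, the only 1 of 3 whose window held the box) and are written 5′ to 3′ on the gene's strand, with CCAAT or its reverse complement ATTGG and the TCACNCCAC match in capitals. They were chosen because they hold the box, from genes of each response, to show its number and placing: *Hmgcs1* did not pass the test (chr13:119690201-119690350, plus strand), *Mvk* fell (chr5:114444089-114444268, plus strand), *Ebp* rose (chrX:8193513-8193692, minus strand), *Insig2* fell (chr1:121332590-121332729, minus strand), *Fasn* rose (chr11:120824548-120824647, minus strand) and *Elovl5* fell (chr9:77917265-77917364, plus strand).
Hmgcs1: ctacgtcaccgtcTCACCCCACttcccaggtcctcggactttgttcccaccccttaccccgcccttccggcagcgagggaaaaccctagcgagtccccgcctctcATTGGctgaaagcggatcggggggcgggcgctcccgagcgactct
Mvk: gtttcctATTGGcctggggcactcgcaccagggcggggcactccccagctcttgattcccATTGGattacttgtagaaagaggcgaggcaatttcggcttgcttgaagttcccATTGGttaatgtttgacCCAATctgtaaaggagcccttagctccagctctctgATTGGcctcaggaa
Ebp: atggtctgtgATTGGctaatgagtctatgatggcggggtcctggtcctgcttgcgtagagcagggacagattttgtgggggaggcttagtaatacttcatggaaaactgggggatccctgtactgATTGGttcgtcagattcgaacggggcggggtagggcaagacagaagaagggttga
Insig2: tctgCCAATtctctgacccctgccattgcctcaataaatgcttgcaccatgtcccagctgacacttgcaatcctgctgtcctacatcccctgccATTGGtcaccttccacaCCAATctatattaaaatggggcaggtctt
Fasn: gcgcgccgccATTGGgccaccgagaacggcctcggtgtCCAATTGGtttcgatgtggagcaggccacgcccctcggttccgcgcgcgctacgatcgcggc
Elovl5: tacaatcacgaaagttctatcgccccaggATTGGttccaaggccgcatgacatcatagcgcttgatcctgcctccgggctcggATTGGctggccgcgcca
The *Mvk* stretch holds 5 boxes, those of *Insig2* and *Fasn* 3 each (a pair overlaps in *Fasn*), and those of *Ebp* and *Elovl5* 2 each. The *Hmgcs1* stretch of 150 bases holds 1 box. Further *Hmgcs1* boxes, at -237 and -176 relative to the start site, lie upstream of the stretch shown. A match is a string of letters, not a measured binding site.

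The first question was how the enzymes from acetyl-CoA to farnesyl diphosphate responded. Of these 7 genes 1 was higher, 2 were lower and 4 did not pass the test. *Acat2*, the cytosolic thiolase that joins acetyl-CoA units at the head of the pathway, measured 92.84, 90.85, 97.21 and 95.67 CPM with vehicle and 118.4, 120.3, 112.0 and 120.9 CPM with TGF-β1. Every TGF-β1 culture lay above every vehicle culture, a rise of 25.2% (log2 fold change 0.32 ± 0.029 SE, adjusted p = 6.33e-13). Of all 50-base words of *Acat2* transcripts, 39.1% also occur in other genes, chiefly its paralog *Acat3*, which itself rose from 2.15 ± 0.256 to 4.21 ± 0.141 CPM (SD, n = 4; log2 fold change 0.97, adjusted p = 8.26e-09), so the split of reads between them is uncertain.

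The kinases of mevalonate moved the other way. *Mvk*, mevalonate kinase, whose promoter with 5 CCAAT boxes is shown above, was at 40.01, 42.66, 43.75 and 46.25 CPM with vehicle and at 34.76, 34.52, 34.81 and 37.28 CPM with TGF-β1 (log2 fold change -0.29 ± 0.041 SE, adjusted p = 1.22e-07). *Pmvk*, phosphomevalonate kinase, was at 26.73, 24.06, 25.46 and 27.75 CPM with vehicle and at 19.2, 19.36, 20.14 and 20.66 CPM with TGF-β1 (-0.39 ± 0.05, adjusted p = 1.16e-08). The groups did not overlap for either kinase, and the fall of *Pmvk* was within the SE of that of *Dhcr7* (-0.37 ± 0.041).

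*Hmgcs1*, which makes HMG-CoA and carries the sterol response element shown above, was with *Cyp51* the most abundant sterol enzyme per kilobase of exon, at 55.4 and 54.9 CPM per kb in vehicle cultures. It measured 254.6 ± 9.86 CPM with vehicle and 251.3 ± 2.54 CPM with TGF-β1 (SD, n = 4), and the interval of its log2 fold change ran from -0.07 to 0.03 (adjusted p = 0.603). *Mvd*, which decarboxylates mevalonate diphosphate, had a log2 fold change of 0.11 (interval 0.01 to 0.21, adjusted p = 0.0884), *Idi1*, the isomerase of isopentenyl diphosphate, -0.11 (-0.21 to -0.02, adjusted p = 0.0534) and *Fdps*, farnesyl diphosphate synthase, 0.15 (0.02 to 0.28, adjusted p = 0.0603). These 3 lay just outside the threshold, and the groups overlapped in each. Reads of *Fdps* and *Idi1* are uncertain, since 26.2% and 17.7% of their 50-base words occur in other genes, mostly predicted copies, and *Gm43738* overlaps 26.7% of the *Fdps* exons on the same strand.

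From farnesyl diphosphate to lanosterol, 1 gene was higher, 1 lower and 1 did not pass the test. *Fdft1*, squalene synthase and the first enzyme committed to sterols, was at 160.2, 154.3, 170.5 and 170.5 CPM with vehicle and at 172.7, 173.9, 168.1 and 177.2 CPM with TGF-β1 (0.08 ± 0.028, adjusted p = 0.0235). The groups overlapped, and the call was lost with DESeq2 (adjusted p = 0.0593) and without vehicle culture 1, vehicle culture 2 or TGF-β1 culture 6 (adjusted p = 0.0675, 0.141 and 0.0605). *Ctsb*, which fell (-0.16, adjusted p = 2.14e-08), overlaps 18.3% of the *Fdft1* exons on the opposite strand. *Sqle*, squalene epoxidase, gave 254.9 ± 10.9 and 250.4 ± 4.93 CPM (interval -0.08 to 0.03, adjusted p = 0.471). *Lss*, which closes the sterol rings, fell from 120.8 ± 5.14 to 110.7 ± 3.4 CPM (-0.13 ± 0.029, adjusted p = 0.000422).

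Of the 8 enzymes that turn lanosterol into cholesterol, 3 were higher, 3 lower and 2 did not pass the test. *Ebp*, a sterol isomerase, was at 34.2, 31.94, 34.83 and 31.69 CPM with vehicle and at 43.88, 44.3, 43.43 and 46.69 CPM with TGF-β1. This was the largest rise of the sterol arm, 34.4% (0.43 ± 0.04, adjusted p = 2.46e-12), with no overlap between groups. *Hsd17b7*, a ketoreductase of sterol demethylation, was at 63.34, 58.63, 63.54 and 64.04 CPM with vehicle and at 76.18, 76.2, 71.69 and 77.05 CPM with TGF-β1 (0.27 ± 0.033, adjusted p = 2.57e-09). *Cyp51*, the lanosterol demethylase, rose from 242.2 ± 11.5 to 265.2 ± 6.78 CPM (0.13 ± 0.027, adjusted p = 0.000131).

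In contrast, *Dhcr7*, the reductase that yields cholesterol from dehydrocholesterol, was at 41.79, 45.82, 43.33 and 47.83 CPM with vehicle and at 35.42, 36.04, 33.37 and 33.66 CPM with TGF-β1. All TGF-β1 cultures were below all vehicle cultures, a fall with a log2 fold change of -0.37 ± 0.041 (adjusted p = 3.62e-10). *Tm7sf2*, another sterol reductase, fell from 11.4 ± 0.463 to 9.383 ± 0.609 CPM (-0.28 ± 0.069, adjusted p = 0.000847), with *Vps51* overlapping 12.1% of its exons on the same strand (*Vps51* itself -0.05, adjusted p = 0.768). *Nsdhl*, a decarboxylating sterol dehydrogenase, went from 95.69 ± 3.74 to 90.72 ± 2.78 CPM (-0.08 ± 0.03, adjusted p = 0.0364) with overlapping groups, and its call was lost with DESeq2 (adjusted p = 0.13) and with DESeq2 size factors in edgeR (adjusted p = 0.0571). It was also lost without vehicle culture 3 or 4 (adjusted p = 0.164 and 0.167) or TGF-β1 culture 5, 6 or 8 (adjusted p = 0.133, 0.0633 and 0.0706). *Msmo1*, a sterol methyl oxidase, and *Sc5d*, a sterol desaturase, had intervals of -0.06 to 0.06 and 0.01 to 0.12 (adjusted p = 0.927 and 0.0508).

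Summed over the 18 sterol arm genes, vehicle cultures 1 to 4 held 1794, 1777, 1907 and 1920 CPM, and TGF-β1 cultures 5 to 8 held 1883, 1902, 1854 and 1915 CPM. These sums overlapped (1849 ± 74.5 and 1889 ± 26.7 CPM, SD, n = 4), while 11 of the 18 genes passed the test, 5 higher and 6 lower. The genes thus changed relative to each other, with a median log2 fold change of -0.01.

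**Figure D2:**
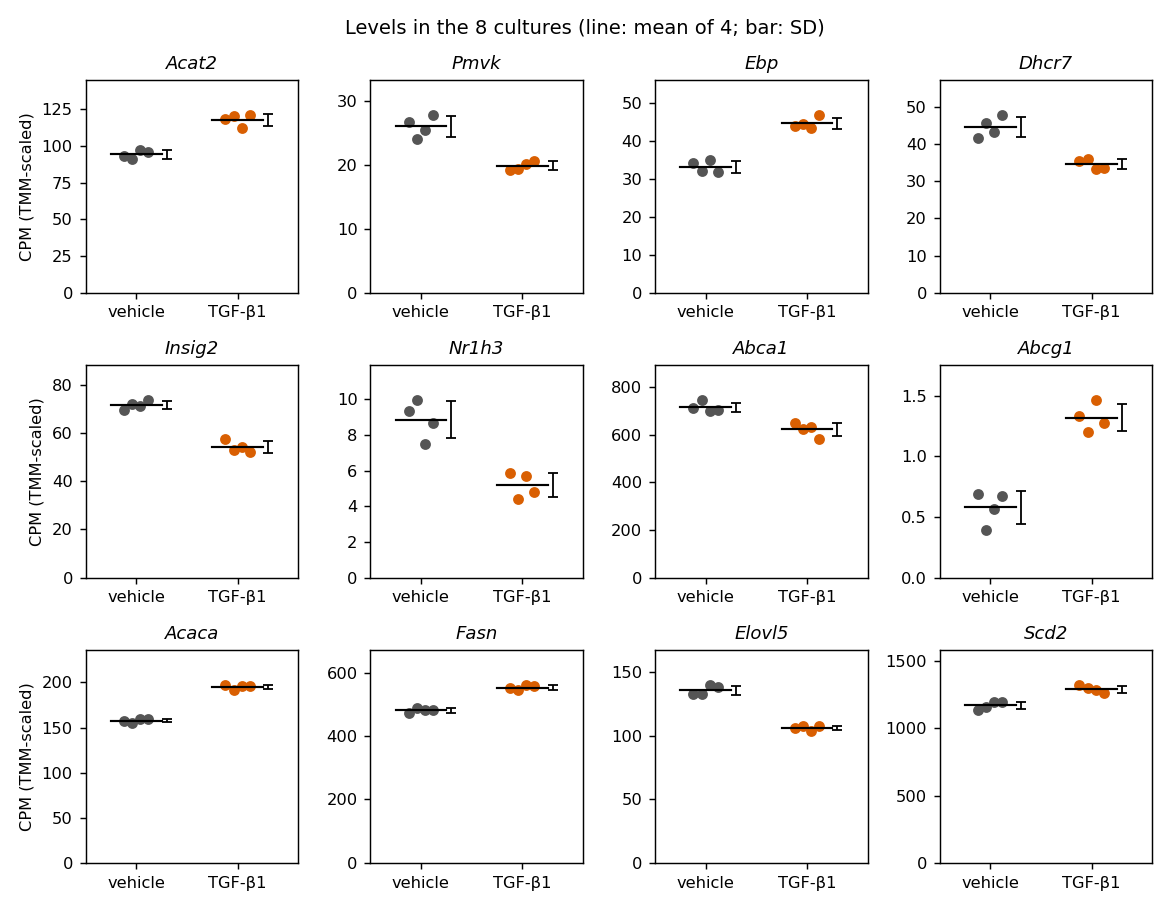
CPM of 12 genes in each of the 4 vehicle (grey) and 4 TGF-β1 (orange) cultures, with the mean as a line and the SD as a bar, each panel from 0. In these 12 genes the groups do not overlap, with *Acat2*, *Ebp*, *Abcg1*, *Acaca*, *Fasn* and *Scd2* higher and *Pmvk*, *Dhcr7*, *Insig2*, *Nr1h3*, *Abca1* and *Elovl5* lower with TGF-β1.

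The next comparison asked whether the genes that control the pathway changed. Of the 7 regulators 1 was higher, 3 were lower and 3 did not pass the test. *Insig2*, which retains the SCAP complex in the endoplasmic reticulum, was at 69.71, 71.83, 71.07 and 73.5 CPM with vehicle and at 57.56, 52.88, 53.99 and 52.07 CPM with TGF-β1. The groups did not overlap (-0.40 ± 0.033, adjusted p = 6.65e-14). Its paralog *Insig1*, itself an SREBP target, gave 207.4 ± 14.8 and 221.5 ± 6.24 CPM (0.09 ± 0.044, adjusted p = 0.114), and remained the more abundant per kilobase in both groups, at 67.1 and 71.6 CPM per kb against 20.6 and 15.6 CPM per kb for *Insig2*.

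*Scap*, the escort of SREBP, was at 87.57, 90.74, 88.05 and 91.75 CPM with vehicle and at 100.9, 101.1, 100.9 and 99.41 CPM with TGF-β1 (0.17 ± 0.028, adjusted p = 1.85e-06), with *5830462I19Rik* overlapping 13.2% of its exons on the opposite strand. *Srebf2*, the main driver of sterol genes, fell from 399.5 ± 5.28 to 375.0 ± 7.11 CPM (-0.09 ± 0.022, adjusted p = 0.000829). *Srebf1*, which favours fatty acid genes, gave 112.9 ± 1.81 and 108.4 ± 2.65 CPM (-0.06 ± 0.027, adjusted p = 0.0811). The escort was higher, while the transcripts of both factors were lower or did not pass the test. SREBP activity depends on cleavage of the protein, which RNA counts do not measure.

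*Nr1h3*, the liver X receptor alpha, was low, at 9.33, 9.936, 7.471 and 8.687 CPM with vehicle and 5.87, 4.399, 5.674 and 4.83 CPM with TGF-β1. The lowest vehicle value stood above the highest TGF-β1 value, and the fall of 41.3% (-0.77 ± 0.095, adjusted p = 5.69e-09) was the largest of the 38 genes. *Nr1h2*, the liver X receptor beta, gave 72.16 ± 1.31 and 70.73 ± 1.76 CPM (interval -0.09 to 0.03, adjusted p = 0.488). Per kilobase of exon, *Nr1h2* was the more abundant receptor in both groups, at 21.5 and 21.1 CPM per kb against 3.52 and 2.06 CPM per kb.

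Among the 3 genes of efflux and transport, the transporters *Abca1* and *Abcg1*, both known targets of the liver X receptors, moved in opposite directions. *Abca1*, which loads cholesterol onto apolipoproteins, was at 710.3, 743.9, 698.3 and 704.2 CPM with vehicle and at 648.9, 624.9, 632.1 and 583.5 CPM with TGF-β1 (-0.20 ± 0.026, adjusted p = 8.72e-08). *Abcg1*, which exports cholesterol to lipoprotein particles, was at 0.6943, 0.3948, 0.5682 and 0.6716 CPM with vehicle and at 1.331, 1.198, 1.462 and 1.277 CPM with TGF-β1, from 18 to 67 counts. Neither pair of groups overlapped, and the rise of *Abcg1* was 2.25-fold (1.17 ± 0.221, adjusted p = 2.18e-05). On the scale of CPM per kb, *Abcg1* stayed far below *Abca1*, at 0.0798 and 0.18 against 68.9 and 60.1. *Stard4*, a soluble sterol carrier, gave 57.19 ± 4.86 and 60.99 ± 2.26 CPM (0.09 ± 0.046, adjusted p = 0.123).

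In the fatty acid arm 5 genes were higher, 1 was lower and 4 did not pass the test, with a median log2 fold change of 0.05. The steps that build palmitate accounted for 2 of the rises. *Acaca*, the acetyl-CoA carboxylase that makes malonyl-CoA, was at 157.4, 155.1, 159.6 and 159.0 CPM with vehicle and at 196.6, 191.5, 196.4 and 195.6 CPM with TGF-β1 (0.31 ± 0.024, adjusted p = 1.55e-14). Of its 50-base words 30.4% also occur in other genes, mainly *Gm5182*, which was at 1.62 ± 0.165 and 1.81 ± 0.459 CPM. *Fasn*, fatty acid synthase, was at 472.5, 489.7, 480.6 and 480.5 CPM with vehicle and at 550.8, 543.8, 559.3 and 557.7 CPM with TGF-β1 (0.20 ± 0.022, adjusted p = 1.25e-10). The gap between groups was many times the SD within them for both genes (2.03 and 2.39 CPM for *Acaca*, 7.02 and 7.11 CPM for *Fasn*). *Acly*, which supplies acetyl-CoA from citrate to both arms, gave 245.7 ± 8.17 and 248.8 ± 2.67 CPM (interval -0.03 to 0.07, adjusted p = 0.603).

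Of the 7 enzymes that lengthen or desaturate fatty acids, 3 were higher, 1 lower and 3 did not pass the test. *Elovl5*, which elongates polyunsaturated fatty acids, was at 132.9, 132.9, 139.5 and 138.3 CPM with vehicle and at 105.7, 107.3, 104.0 and 107.9 CPM with TGF-β1 (-0.36 ± 0.027, adjusted p = 3.25e-15). It was the only gene of this arm that fell, and the desaturases that act beside it on the same fatty acids rose. *Fads2* went from 145.7 ± 5.43 to 162.7 ± 6.34 CPM (0.16 ± 0.028, adjusted p = 1.06e-05) and *Fads1* from 269.4 ± 6.71 to 284.8 ± 4.24 CPM (0.08 ± 0.024, adjusted p = 0.00519), both without overlap.

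*Scd2*, a stearoyl-CoA desaturase that makes monounsaturated fatty acids, was the most abundant of the 38 genes per kilobase of exon, at 214 CPM per kb with vehicle and 236 CPM per kb with TGF-β1. It measured 1136, 1160, 1191 and 1194 CPM with vehicle and 1317, 1300, 1281 and 1258 CPM with TGF-β1 (0.14 ± 0.022, adjusted p = 6.47e-07). Its paralog *Scd1*, next in level at 121 and 122 CPM per kb, gave 592.3 ± 14.9 and 597.1 ± 4.45 CPM (interval -0.03 to 0.06, adjusted p = 0.726), and whether the responses of the paralogs differ was not tested. *Elovl6*, which elongates palmitate, and *Elovl1*, which makes very long chains, had log2 fold changes of -0.07 (interval -0.14 to -0.01, adjusted p = 0.0652) and -0.06 (-0.12 to 0.01, adjusted p = 0.159). Summed over the 10 genes of the arm, vehicle cultures held 3335 ± 59.7 CPM and TGF-β1 cultures 3567 ± 29.2 CPM (SD, n = 4).

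The vehicle cultures also differed among themselves in these genes. Vehicle culture 4 was among the 2 highest of the 4 vehicle cultures in 17 of 18 sterol arm genes and vehicle culture 3 in 15, against 3 for vehicle culture 1 and 1 for vehicle culture 2. In the fatty acid arm these counts were 8 of 10 genes for cultures 3 and 4, 1 for culture 1 and 3 for culture 2, while over all genes tested each culture was among the 2 highest in 49.8% to 50.3%. In a list of 10 proliferation genes, vehicle cultures 3 and 4 were the 2 highest in 10 of 10. Among the TGF-β1 cultures, the counts for cultures 5 to 8 were 6, 11, 4 and 15 of 18 in the sterol arm, 6, 6, 5 and 3 of 10 in the fatty acid arm and 6, 3, 3 and 8 of 10 for proliferation, and 47.9% to 52.5% over all genes tested. Culture 8 was thus often high in the sterol arm and in proliferation genes but not in the fatty acid arm. Culture 6, among the 2 highest in 61.1% of sterol arm genes, was near its share of 52.5% over all genes tested. Of the 10 proliferation genes 6 were higher with TGF-β1, where 20.9% of all genes tested were, and 0 lower (edgeR; also 0 lower at an unadjusted p under 0.05), and they summed to 1471 to 1584 CPM with vehicle and 1636 to 1667 CPM with TGF-β1. Their part in the lipid genes' values was not tested.

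**Figure D3:**
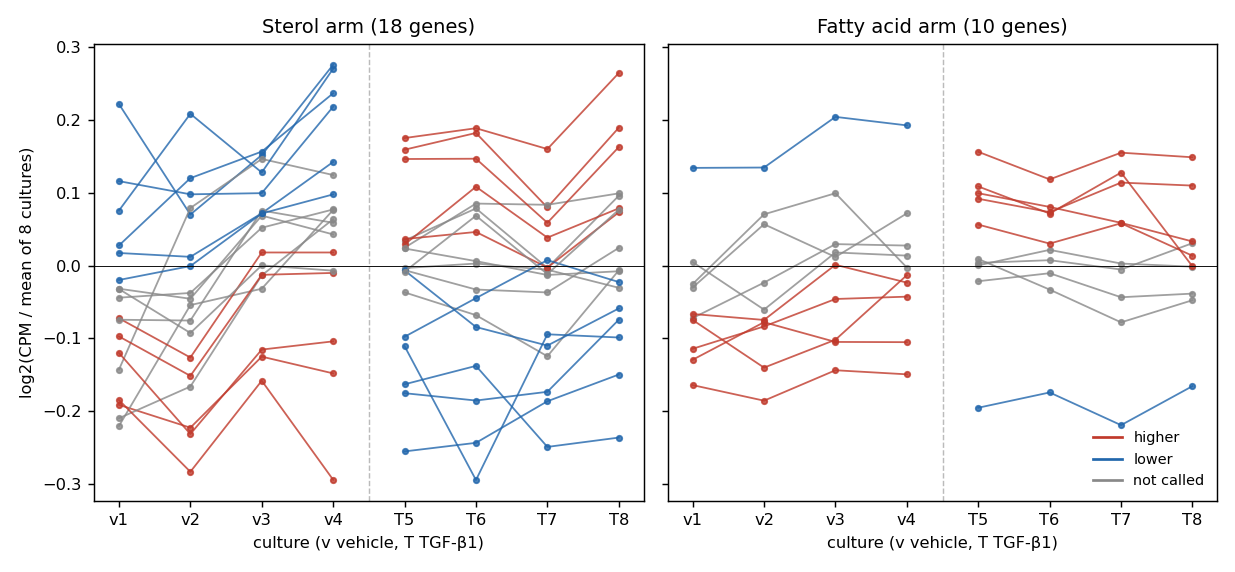
Level of each gene in each culture relative to its mean over the 8 cultures (log2), for the sterol arm (left) and the fatty acid arm (right); a line joins the values of 1 gene and the order of cultures within a group has no meaning. Vehicle cultures 3 and 4 are among the 2 highest vehicle cultures in 15 and 17 of the 18 sterol arm genes.

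The last comparisons placed these genes beside the rest of lipid metabolism. Of 28 other sterol genes (sterol uptake, storage, trafficking, SREBP processing and oxysterol metabolism), 6 were higher, 14 lower and 8 did not pass the test (71.4% called, against 41.3% of all genes tested), with a median log2 fold change of -0.12. The largest changes were in *Ch25h*, which makes an oxysterol from cholesterol, at 10.98 to 13.47 CPM with vehicle and 5.724 to 8.406 CPM with TGF-β1 (-0.82 ± 0.088, adjusted p = 1.19e-09), and *Cyp7b1*, an oxysterol hydroxylase, from 2.158 ± 0.209 to 1.369 ± 0.217 CPM (-0.65 ± 0.161, adjusted p = 0.000841). *Mylip*, a ubiquitin ligase that removes lipoprotein receptors and is itself a liver X receptor target, fell from 77.03 ± 3.76 to 55.01 ± 1.98 CPM (-0.49 ± 0.034, adjusted p = 5.67e-16). The other two sterol hydroxylases in the list, picked out after their values were seen, also fell, *Cyp46a1* by a log2 fold change of -0.43 (adjusted p = 0.000144) and *Cyp27a1* by -0.38 (adjusted p = 0.000246).

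Of 28 other genes of fatty acid and glycerolipid synthesis 26 were tested, of which 9 were higher and 7 lower (61.5% called), with a median of 0.01. The largest changes were in *Lpin3*, a phosphatidate phosphatase at 1.612 and 2.827 CPM (0.81 ± 0.161, adjusted p = 5.65e-05), *Hacd4*, a hydroxyacyl-CoA dehydratase (-0.55 ± 0.03, adjusted p = 4.95e-20), and *Elovl4*, an elongase of very long chains (0.52 ± 0.063, adjusted p = 2.51e-09). Of 14 fatty acid oxidation genes 6 were lower and 0 higher (edgeR), with 0 higher at an unadjusted p under 0.05 and 0 with DESeq2, and their median was -0.05. The share called, 42.9%, was close to the 41.3% of all genes tested, of which 20.3% were lower. *Acadm*, the medium-chain acyl-CoA dehydrogenase, fell from 72.03 ± 1.54 to 44.98 ± 0.988 CPM (-0.68 ± 0.033, adjusted p = 8.67e-22). The carnitine palmitoyltransferases *Cpt2* (-0.27 ± 0.048, adjusted p = 1.14e-05) and *Cpt1a* (-0.23 ± 0.025, adjusted p = 1.06e-10), which bring fatty acids into mitochondria, were lower as well.

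**Figure D4:**
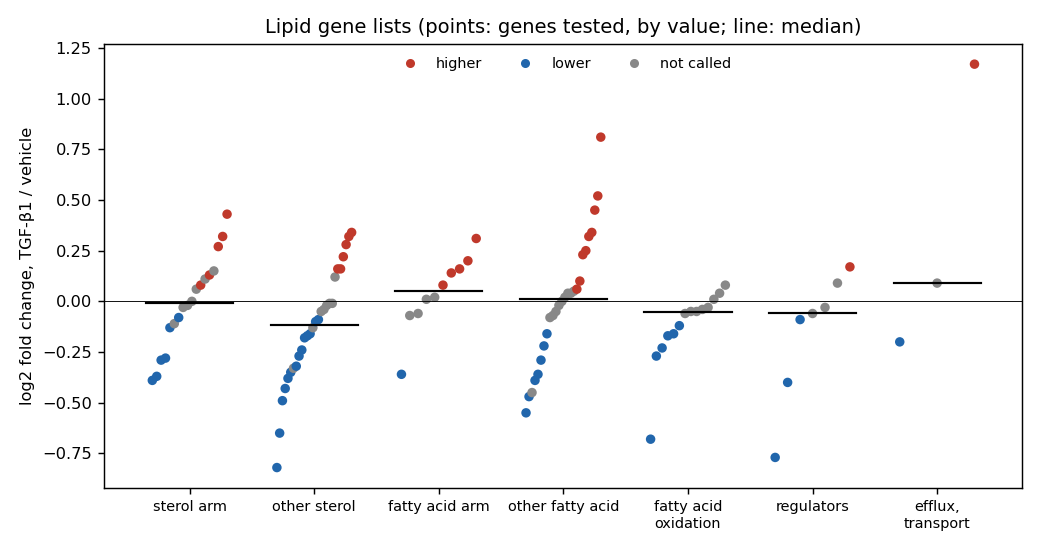
Log2 fold change of each tested gene in 7 lipid gene lists (points ordered by value within a list; black lines are medians; red and blue points passed the test). Other sterol genes have the lowest median (-0.12) and fatty acid oxidation genes include no red point.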

How the data were processed

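RNA was extracted from 8 mouse brain pericyte cultures and libraries were prepared with an Illumina stranded total RNA kit. The deposited values are raw counts per gene. Per the labels and the study's methods, the authors aligned reads to mm10 with STAR 2.7.5c in its 2-pass mode, removed duplicates with SAMtools 1.15 and counted with featureCounts 2.0.3. The annotation release and the strand setting are not given in the sources used here. Low counts (1 to 20) were mostly even (68.5% to 70.2%), as when both mates of a pair are counted.

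Symbols (54409 identifiers) came from a separate list of gene names, and positions (54495) from GENCODE M21 on GRCm38, the assembly named mm10. The 38 genes and all lists were chosen with earlier results of these data known. Counts were tested with edgeR 4.0.16 in R 4.3.3 (filterByExpr, TMM, robust quasi-likelihood fit), adjusted by Benjamini-Hochberg over the 22544 genes tested, with a threshold of 0.05. SEs were taken as the absolute log2 fold change over the square root of F, and intervals are 95%. Differences are TGF-β1 minus vehicle, and CPM per kb divides by merged exon length. Genes named outside the 38 were the 3 largest changes past the threshold in each of 3 context lists, unless stated. Not every gene of these lists is named.

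In 10 simulated data sets on 22544 genes, each with 200 genes changed, 62.1% were recovered at a log2 change of 0.5 and 81.7% at 1, with 7.58% false calls. In the data 41.3% of genes passed the test, and the median absolute log2 fold change of the 38 genes was 0.13. The simulated rates therefore do not carry over to these genes. The alternatives were DESeq2 1.42.0, other scaling factors, other filters, counts halved to approximate fragments, and each culture left out. Among the 38 genes *Abcg1* had the fewest counts (18 to 67), and the part of depth in the calls was not tested. The single-cell, tissue and protein experiments of the study were not analysed here.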

Additional observations from a re-analysis of the deposited data

Results flagged for a closer look

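In 6 of the 76 groups of 4 cultures examined (38 genes, each in both groups), 1 culture stood apart from the other 3 by more than Dixon's critical value for 4 values. Chance flags about 1 in 20 groups, or 3.8 of 76. *Mvk* in TGF-β1 culture 8 was at 37.28 CPM, with the nearest other culture at 34.81 CPM, still below every vehicle culture. *Hsd17b7* in vehicle culture 2 was at 58.63 CPM (nearest 63.34 CPM) and in TGF-β1 culture 7 at 71.69 CPM (nearest 76.18 CPM), low in both groups, which remained apart. *Tm7sf2* in vehicle culture 4 was at 12.09 CPM (nearest 11.26 CPM) and in TGF-β1 culture 6 at 8.472 CPM (nearest 9.623 CPM). *Scap* in TGF-β1 culture 8 was at 99.41 CPM (nearest 100.9 CPM), above every vehicle culture. The calls of these 4 genes kept their direction and their side of the threshold under every alternative run, including without the culture named.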

How the results depend on the processing

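Over 15 alternatives (7 of the tool, scaling, filter or counting unit and 8 that left out a culture), the number of the 38 genes that were higher ranged from 11 to 16 and the number lower from 10 to 14. Of the 23 genes called, 21 kept their direction and call throughout, the exceptions being *Fdft1* and *Nsdhl*, whose values are given above. Of the 15 genes not called, 8 passed the threshold under some alternative (*Mvd*, *Idi1*, *Fdps*, *Sc5d*, *Insig1*, *Srebf1*, *Stard4* and *Elovl6*). In the sterol arm the number higher ranged from 4 to 7 and the number lower from 5 to 7, so that 5 higher and 6 lower became 7 higher and 5 lower without vehicle 3 or vehicle 4. In the fatty acid arm the number lower was 2 in place of 1 with library totals only and with upper-quartile factors, and ranged from 1 to 2 with a culture left out (2 without vehicle 1, vehicle 4 or TGF-β1 5). Among the regulators the number higher was 2 in place of 1 when every gene detected in some culture (1 count or more) was tested, and 1 to 2 with a culture left out (2 without vehicle 3 or vehicle 4). In efflux and transport it was 1 to 2 (2 without vehicle 4). The added genes were *Elovl6*, *Insig1* and *Stard4*.

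Changes of sign touched only genes near 0 that were not called. *Msmo1* went from 0.0043 to -0.0065 with library totals only, -0.0012 with upper-quartile factors and -0.0014 with every detected gene tested, and ranged from -0.02 to 0.04 with a culture left out (below 0 without vehicle 1, vehicle 2 or TGF-β1 5). *Hmgcs1* ranged from -0.03 to 0.0086 (above 0 without vehicle 3) and *Scd1* from -0.0032 to 0.03 (below 0 without vehicle 2). The causes were not tested. No paired analysis was possible because the labels number the vehicle cultures 1 to 4 and the TGF-β1 cultures 5 to 8 and share no number. No scaling moved the median of all genes by more than 0.011 on the log2 scale. With every detected gene tested, 20.2% of all genes were called, against 45.9% with halved counts.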
